A study of Homo sapiens with 16 samples.

Results

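A set of 10 genes of the cyclic AMP (cAMP) and CREB pathway was followed across the 6 treatment groups of a study of serum-starved human skin fibroblasts. They were chosen by name and comprise the transcription factors CREM, CREB1 and CREB5, the kinase SIK1, the phosphodiesterases PDE4A, PDE4B and PDE4D, the catalytic subunits PRKACA and PRKACB of protein kinase A (PKA), and the anchoring protein AKAP12. All 10 were found among the 28374 rows of the gene table, and 9 of the 10 had enough counts to be tested, as did 18575 of all rows. The exception was SIK1, which was listed at 0 in every library. None of the 9 tested genes passed the test in any of the 10 comparisons, in each of which under 0.5% of all genes did.

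cAMP is made by adenylyl cyclases and binds the regulatory subunits of PKA, which then release the catalytic subunits encoded by PRKACA and PRKACB. These phosphorylate CREB1, which binds cAMP response elements in DNA and switches on target genes. Several targets act back on the pathway: CREM yields from an internal promoter the short repressor ICER, PDE4 enzymes break down cAMP, and SIK1 phosphorylates the CRTC coactivators of CREB. Growth factors and phorbol esters also reach CREB1, without cAMP, through the kinases MSK1 and MSK2, which are encoded by RPS6KA5 and RPS6KA4.

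The cells were CCD-1070Sk, a line of normal human skin fibroblasts, and all groups were starved of serum before treatment. The TPA+H89 cells (2 libraries) and the EGF+H89 cells (2 libraries) received 10 µM H89 for 30 min before 1 h with the stimulus. H89 is a kinase inhibitor, used against PKA and also against MSK1 and MSK2. The TPA cells (2 libraries) received the phorbol ester TPA, an activator of protein kinase C, at 100 nM for 1 h. The EGF cells (3 libraries) received epidermal growth factor at 30 ng/ml for 1 h. The H89 cells (3 libraries) received 10 µM H89 alone for 30 min, and the control cells (3 libraries) received neither inhibitor nor stimulus. Both of these groups are labelled 0 h and the stimulated groups 1 h, so comparisons between them also differ in time. RNA was depleted of ribosomal RNA and sequenced with strand kept. Of 16 deposited samples, control replicates 3 and 4 held identical counts and were counted as 1 library, which left 15. Nothing says that the replicates were separate cultures, so every p-value below rests on a spread that may be technical. The study has no group in which cAMP was raised.

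Total counts ran from 7527026 in TPA+H89 replicate 1 to 130075914 in TPA replicate 2. EGF replicate 1 and control replicate 1 stood apart, with median correlations of 0.865 and 0.885 to the other libraries on the log2 scale, against 0.936 to 0.974 for the other 13, of which TPA replicate 2 was the lowest. The ribosomal RNA genes listed as RNR1 and RNR2 split the rest: they took 11.7% to 30.4% of counts in EGF replicate 2, control replicate 2 and replicate 1 of TPA+H89, EGF+H89, TPA and H89, and no counts in the other 7. These 3 sets are called technical batches below, as read from the counts and not from labels. EGF replicate 1 and control replicate 1 were made a batch because more of their genes had a count of 1 than of 2. Those numbers were 1121 against 701 and 1185 against 785, whereas the other 13 libraries went the other way. The fibroblast genes COL1A1, COL1A2, DCN and PDGFRB were abundant in every library, and the 3 keratinocyte markers summed to at most 0.699 CPM (the count of a gene scaled to the total count of its library). The endothelial markers summed to at most 2.82 CPM and the melanocyte markers to at most 2.17 CPM. The leukocyte markers summed to 10.5 to 76.6 CPM, nearly all of it CD68, at 9.44 to 76.2 CPM. In such bulk samples fewer cells of a type and less RNA per cell cannot be told apart.

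The DNA letters that CREB family proteins are known to bind are shown first, since the feedback of the pathway on its own genes is known to run through them. RefSeq promoter windows on GRCh38.p14 (250 bases before to 50 after each annotated start) were searched on both strands for the full element TGACGTCA and for the shorter core TGACG. A full element holds a pair of overlapping cores, one on each strand. The stretches below are printed 5′ to 3′ on the strand of the gene, with each match in capitals (CGTCA is TGACG read on the other strand). They lie at chr10:35195752-35195901, plus strand (the internal start of CREM), chr10:35127027-35127186, plus strand (before an upstream start of CREM, labelled first-exon start), chr19:10416673-10416782, plus strand (PDE4A), chr5:59587626-59587745, minus strand (PDE4D) and chr21:43427242-43427361, minus strand (SIK1). Other annotated starts of CREM lie further upstream than the one labelled first-exon start, and their windows held no core.
CREM, internal start: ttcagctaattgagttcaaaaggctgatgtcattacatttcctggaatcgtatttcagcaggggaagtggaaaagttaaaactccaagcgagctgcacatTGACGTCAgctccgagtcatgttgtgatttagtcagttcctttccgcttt
CREM, first-exon start: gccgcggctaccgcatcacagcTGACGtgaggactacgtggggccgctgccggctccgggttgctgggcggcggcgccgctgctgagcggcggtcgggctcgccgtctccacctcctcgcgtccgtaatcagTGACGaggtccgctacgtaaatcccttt
PDE4A: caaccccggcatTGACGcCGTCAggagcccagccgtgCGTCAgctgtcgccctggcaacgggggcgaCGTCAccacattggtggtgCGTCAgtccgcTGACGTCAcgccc
PDE4D: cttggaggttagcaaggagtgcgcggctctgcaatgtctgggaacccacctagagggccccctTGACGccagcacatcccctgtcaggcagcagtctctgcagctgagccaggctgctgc
SIK1: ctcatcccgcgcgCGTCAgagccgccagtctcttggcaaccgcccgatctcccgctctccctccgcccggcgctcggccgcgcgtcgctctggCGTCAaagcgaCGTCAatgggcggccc
The full element was found 50 bases before the internal start of CREM and at the PDE4A start, and in the windows of 2 of the 10 genes in all, against 2.25% of 27305 genes. The core was found for 6 of 10 genes (CREM, SIK1, PDE4A, PDE4D, PRKACA and PRKACB), against 28.4% of all genes, but the 10 genes have 41 windows between them, and more windows give more chances of a match. By window, 8 of 41 held the core, against 24.6% of all windows, so the members' share was the lower by that count. For the full element it was the higher, at 3 of 41 windows against 1.85%, though overlapping windows of CREM share 1 element. A looser pattern, TGANNTCA (N is any base), was also searched and matched 10 of 41 windows, against 11.5%. Its matches other than the full element are not marked in the stretches. In the PDE4A stretch 7 cores were found, in the SIK1 stretch 3 and in the PDE4D stretch 1. A match is a description of letters, not evidence of binding.

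CREM encodes activator and repressor forms, ICER among them, and gene-level counts add them all up. Its level was 17.3 and 14.1 CPM in TPA+H89 cells, 16.01 and 17.5 CPM in EGF+H89 cells, and 16.5 and 26.6 CPM in TPA cells. The other groups had 13.7, 13.7 and 15.9 CPM with EGF, 14.2, 13.9 and 15.02 CPM with H89, and 10.4, 16.6 and 12.95 CPM in control cells. (CPM here and below are scaled by edgeR's TMM factors.) One library, TPA replicate 2, stood above the other 14, and TPA replicate 1 was level with the highest control. The groups averaged 21.6 ± 7.08 CPM in TPA cells and 13.3 ± 3.11 CPM in control cells (SD, n = 2 and 3). The log2 fold change was 0.70 ± 0.27 (SE; 95% interval 0.12 to 1.28; edgeR's quasi-likelihood test, adjusted p = 0.318). Without TPA replicate 2 it was 0.32, and without TPA replicate 1 it was 0.97, with 1 TPA library left in each of these fits. Within batches the TPA difference from control was −0.01 in the rRNA-rich libraries and 1.03 in those with no RNR1 or RNR2 counts. EGF against control gave 0.12 ± 0.24 for CREM, and H89 against control gave 0.11 ± 0.24.

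CREB1, the factor that PKA and the MSKs phosphorylate, was the steadiest member. Its group means lay between 46.5 CPM in EGF+H89 cells and 52.3 CPM in EGF cells, and every group overlapped its neighbour in that order. Single libraries ran from 38.4 CPM in TPA replicate 2 to 65.3 CPM in TPA replicate 1, so the widest spread was inside the TPA pair. All 8 pairwise comparisons had a 95% interval inside a 2-fold change either way, the outermost bounds being −0.71 and 0.60 on the log2 scale. For CREB1 mRNA a 2-fold difference between groups was thus outside the intervals, whereas phosphorylation, by which the factor is known to be switched on, is not measured by RNA counts.

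CREB5, a relative that pairs with JUN, averaged 16.1 ± 4.45 CPM in TPA cells and 14.4 ± 3.23 CPM in control cells (n = 2 and 3). The lowest group mean was 11.3 CPM in EGF+H89 cells. Its 8 log2 fold changes lay between −0.26 (TPA+H89 against TPA) and 0.30 (TPA against EGF), with adjusted p of 0.685 or more. The EGF+H89 pair, at 11.6 and 10.9 CPM, lay just below the H89 libraries, at 11.7, 12.3 and 13.1 CPM.

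**Figure D1:**
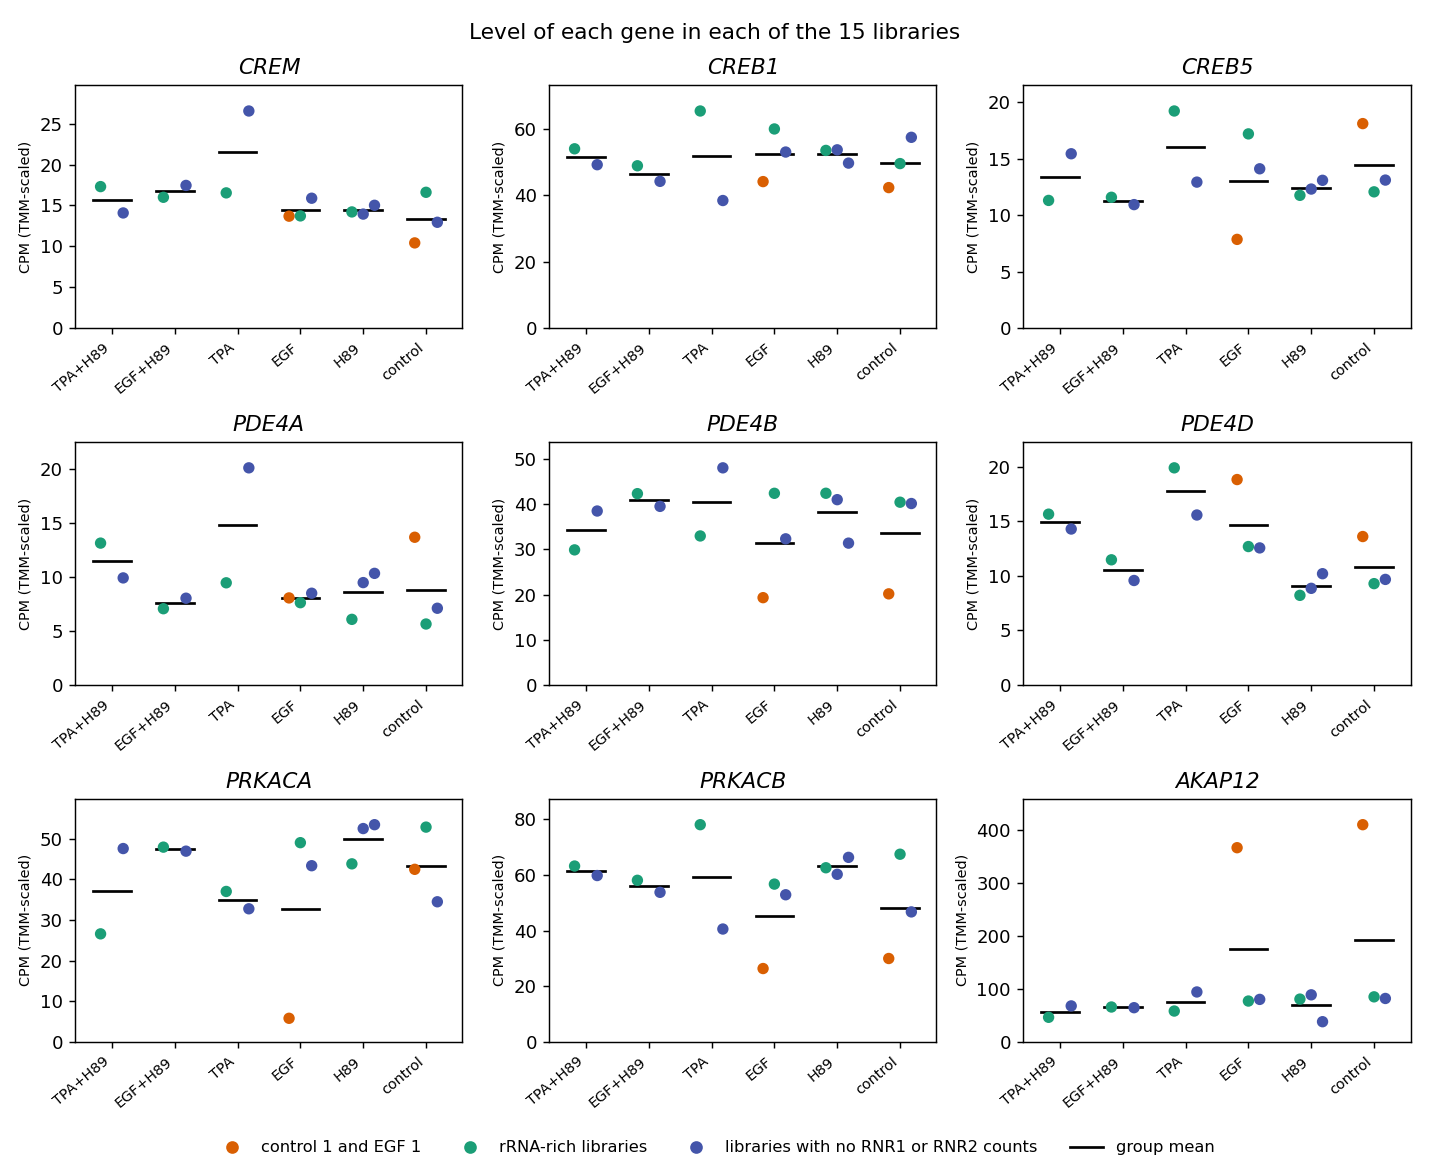
Level of each of the 9 tested genes, in TMM-scaled CPM, in each of the 15 libraries, by treatment group; points are libraries coloured by technical batch and lines are group means. The highest point is TPA replicate 1 for PDE4D and TPA replicate 2 for CREM and PDE4A, while EGF replicate 1 and control replicate 1 lie apart for AKAP12 and, in EGF replicate 1, for PRKACA.

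SIK1, the kinase that restrains the CRTC coactivators, could not be read. It had 0 counts in all 15 libraries, including the deepest. Its near-identical copy on the same chromosome, listed as LOC102724428, was also at 0. So was U2AF1, a splicing factor that every cell uses and that has a near-identical copy too. These zeros may be failed estimates, so no level, limit or fold change is drawn for SIK1.

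Of the phosphodiesterases that end the cAMP signal, PDE4D had the most regular pattern. Its level was 15.7 and 14.3 CPM in TPA+H89 cells, 11.5 and 9.59 CPM in EGF+H89 cells, and 19.9 and 15.6 CPM in TPA cells. It was 18.8, 12.7 and 12.6 CPM in EGF cells, 8.22, 8.87 and 10.2 CPM in H89 cells, and 13.6, 9.30 and 9.69 CPM in control cells. Both TPA libraries lay above all 3 control libraries, and both TPA+H89 libraries above all 3 H89 libraries. Across all genes tested, 9.6% lay wholly higher in this way in TPA against control, and 9.92% in TPA+H89 against H89, so PDE4D being the one member of 9 to do so in each is near the background.

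The log2 fold change of PDE4D was 0.71 ± 0.28 for TPA against control (95% interval 0.11 to 1.30, adjusted p = 0.321) and 0.72 ± 0.28 for TPA+H89 against H89 (0.12 to 1.32, adjusted p = 1.0). The difference between these 2 responses, the interaction of TPA with H89, was 0.01, with a 95% interval of −0.84 to 0.87. That interval holds both a loss of the whole TPA difference and a gain of the same size, so it does not show that H89 left PDE4D alone. Within batches PDE4D was higher with TPA than in control by 1.10 and 0.68, and higher with TPA+H89 than with H89 by 0.93 and 0.59. EGF against control gave 0.47, 0.45 and 0.38 in the 3 batches and 0.44 ± 0.25 overall (adjusted p = 1.00). With a term for batch, the TPA difference from control was 0.91 ± 0.25 (adjusted p = 0.0934), in a fit that called 1.25% of all genes and 0 of the 9 members. The direction was thus the same in every batch, but the test over all genes was not passed with or without the term.

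PDE4A, another cAMP phosphodiesterase, had 13.1 and 9.90 CPM in TPA+H89 cells, 7.05 and 8.02 CPM in EGF+H89 cells, and 9.45 and 20.1 CPM in TPA cells. It had 8.05, 7.61 and 8.48 CPM with EGF, 6.07, 9.47 and 10.3 CPM with H89, and 13.7, 5.64 and 7.10 CPM in control cells. As with CREM, the highest library was TPA replicate 2. The control libraries overlapped the TPA pair through control replicate 1 alone, at 13.7 CPM. Unlike CREM, PDE4A was higher with TPA than in control within both batches that hold these groups, by 0.74 and 1.495. Each of these values compares 1 library with 1. Of the 9 members, 2 (PDE4A and PDE4D) were higher in both batches and 1 (PRKACA) was lower in both. TPA against control gave 0.74 ± 0.41 (adjusted p = 0.424), which was 0.10 without TPA replicate 2 and 1.21 without control replicate 1. TPA against EGF gave 0.88 ± 0.40 (adjusted p = 0.374), and here both TPA libraries lay above all 3 EGF libraries. CREM and PDE4A were the 2 of 9 members to lie wholly higher in TPA than in EGF cells, against 9.71% of all genes.

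PDE4B, the third of these enzymes, averaged 34.2 ± 6.08 CPM in TPA+H89 cells, 40.9 ± 1.99 CPM in EGF+H89 cells and 40.5 ± 10.7 CPM in TPA cells. It averaged 31.3 ± 11.6 CPM in EGF cells, 38.3 ± 6.002 CPM in H89 cells and 33.6 ± 11.6 CPM in control cells. The 2 lowest libraries were EGF replicate 1 and control replicate 1, at 19.3 and 20.2 CPM, and the other 13 lay between 29.9 and 48.0 CPM. No neighbouring groups were apart, and the largest difference was 0.39 ± 0.36 for EGF+H89 against EGF (adjusted p = 1.00).

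The PKA catalytic subunits were expressed in every group. PRKACA had 26.6 and 47.6 CPM in TPA+H89 cells, 48.0 and 47.0 CPM in EGF+H89 cells, and 37.1 and 32.8 CPM in TPA cells. It had 5.80, 49.1 and 43.4 CPM with EGF, 43.9, 52.6 and 53.5 CPM with H89, and 42.5, 52.9 and 34.5 CPM in control cells. EGF replicate 1, at 260 counts, was far below the other 14 libraries, which ran from 26.6 to 53.5 CPM. The log2 fold change of EGF against control was −0.40 ± 0.53 with that library and 0.08 ± 0.26 without it. None of the 8 intervals of PRKACA lay within a 2-fold change with that library, and 7 of 8 did without it.

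PRKACB averaged 61.5 ± 2.42 CPM in TPA+H89 cells, 55.9 ± 3.06 CPM in EGF+H89 cells and 59.3 ± 26.5 CPM in TPA cells. It averaged 45.3 ± 16.5 CPM in EGF cells, 63.1 ± 3.07 CPM in H89 cells and 48.1 ± 18.8 CPM in control cells. The 3 groups given H89 were even, whereas the TPA pair lay at 78.1 and 40.6 CPM, and EGF replicate 1 and control replicate 1 were the lowest at 26.4 and 30.0 CPM. Its largest difference was 0.39 ± 0.34 for H89 against control (adjusted p = 1.00).

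AKAP12, a scaffold at the cell membrane that holds PKA and protein kinase C, had its 2 highest values in the pair of libraries that stood apart. It had 46.3 and 67.8 CPM in TPA+H89 cells, 65.7 and 64.4 CPM in EGF+H89 cells, and 58.1 and 94.1 CPM in TPA cells. It had 366, 77.0 and 80.1 CPM with EGF, 80.7, 88.7 and 38.0 CPM with H89, and 409.9, 84.9 and 81.9 CPM in control cells. The values of 366 and 409.9 CPM belong to EGF replicate 1 and control replicate 1, the pair that stood apart. Comparisons with EGF or control moved with that pair. H89 against control was −1.48 ± 0.70 (adjusted p = 1.00) with all libraries, and −0.28 ± 0.33 without that pair. In the same way TPA against control was −1.34 ± 0.80 with all libraries, against −0.13 ± 0.37 without the pair. Within batches EGF differed from control by −0.16, −0.14 and −0.03.

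**Figure D2:**
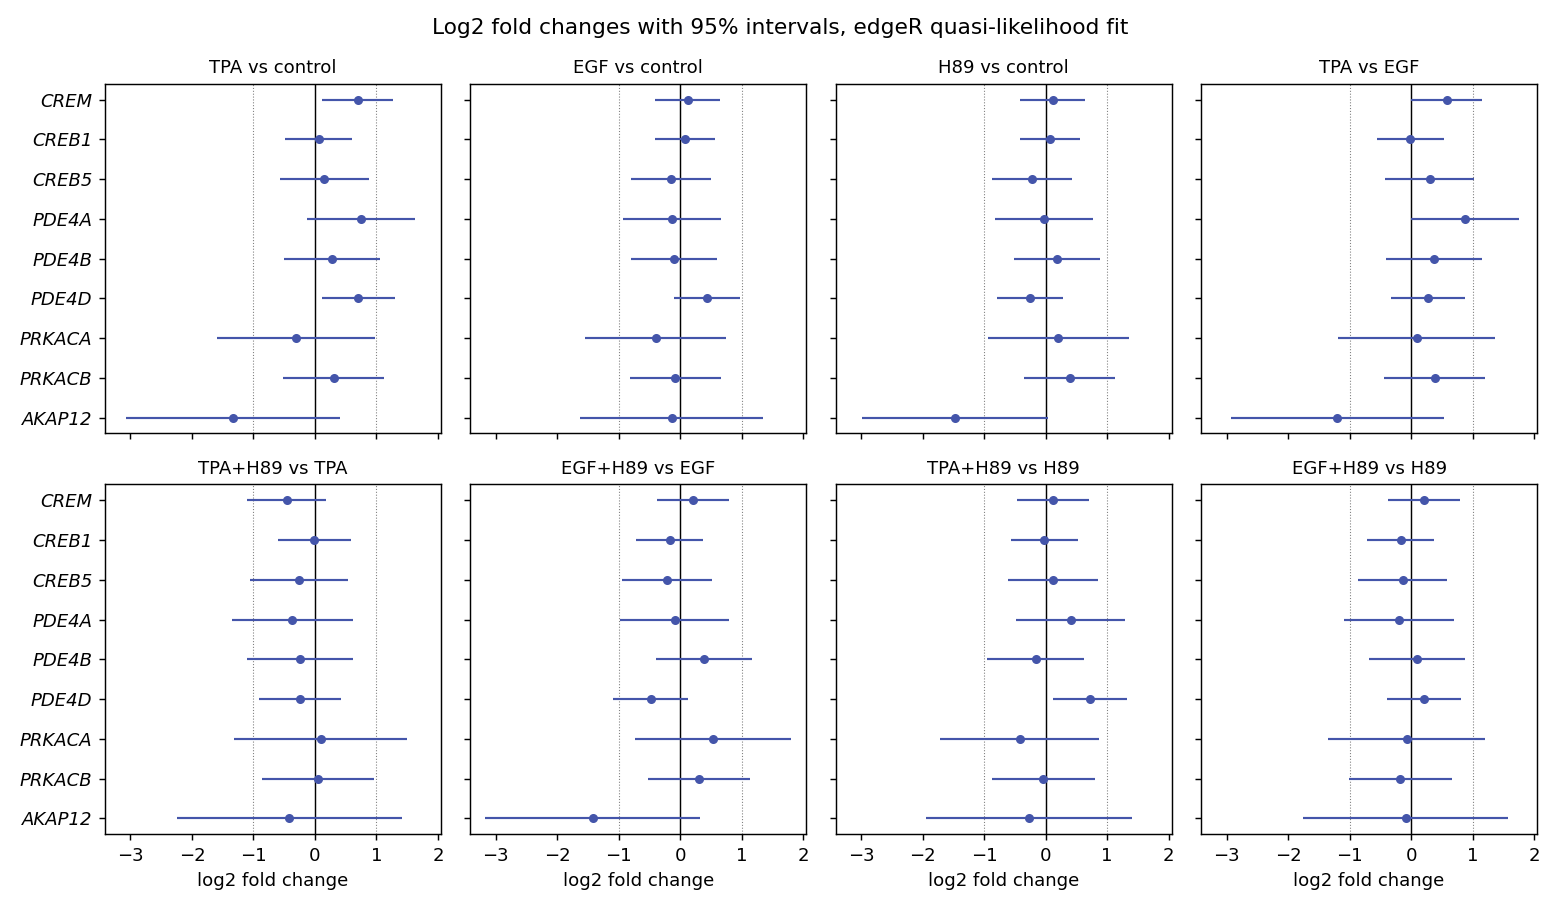
Log2 fold change of each tested gene (points) with its 95% interval (bars) in the 8 pairwise comparisons, from edgeR's quasi-likelihood fit; dotted lines mark a 2-fold change. The CREB1 intervals lie inside the dotted lines in all 8 panels, and those of AKAP12 and PRKACA cross them in all 8.

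Counted over the members, 0 of 9 passed an adjusted p of 0.05 in TPA against control, where 0.415% of all genes tested did, and 0 of 9 in EGF against control, where 0.0269% did. The same count was 0 of 9 in TPA+H89 against H89, against 0.0969% of all genes, and 0 of 9 in EGF+H89 against H89, against 0.0269%. In H89 against control, TPA+H89 against TPA, EGF+H89 against EGF, TPA against EGF and both interactions with H89 it was 0 of 9, and 0.0% of all genes were called as well. So these shares are too low for a count of 0 in 9 to set the members apart. DESeq2 also called 0 of the 90 member values, with 5 at an unadjusted p under 0.05. Its background was larger than that of edgeR. In TPA against control it called 324 genes higher and 200 lower of 18575, and 2766 were under 0.05 unadjusted. With edgeR 4 of the 90 were under 0.05 unadjusted. They were CREM and PDE4D in TPA against control, where 13.2% of all genes were, PDE4D in TPA+H89 against H89, where 3.89% were, and PDE4A in TPA against EGF, where 13.4% were.

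Between TPA and control cells the median size of the members' log2 fold change, signs aside, was 0.31, and that of all genes tested, many of them with low counts, was 0.51. Their median signed value was 0.27 for TPA against control, with 7 of 9 positive, against −0.02 over all genes, and with the batch term it was 0.02 against 0.02. In each batch that holds both groups, TPA and control are 1 library each. In the rRNA-rich batch they belong to separately named runs of samples, so run and treatment cannot be told apart there, and in the other batch the same control counts stand in the TPA library's run and in an earlier one.

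No member passed the test when H89 preceded the stimulus. TPA+H89 against TPA gave CREM −0.46 ± 0.30 (95% interval −1.11 to 0.19, adjusted p = 0.798), the lowest of the 9 values, and PDE4A −0.37 ± 0.45. The median over the 9 was −0.25, against −0.02 over all genes. For CREM the interaction of TPA with H89 was −0.57 ± 0.39 (95% interval −1.41 to 0.26, adjusted p = 0.910). This rests on TPA replicate 2 as well: within batches CREM in TPA+H89 differed from TPA by 0.07 and −0.91. PDE4A likewise differed by 0.47 and −1.02. AKAP12 was lower in both batches, by −0.33 and −0.47, as were PDE4D (−0.35 and −0.12) and PDE4B (−0.14 and −0.32). Each of the other members changed sign between the batches, and every such value compares 1 library with 1.

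EGF+H89 against EGF had the groups apart for 1 higher member, CREM at 0.21 ± 0.27, against 7.6% of all genes. It had 2 lower members, AKAP12 at −1.42 ± 0.81 and PDE4D at −0.48 ± 0.28, against 10.1% of all genes. Without EGF replicate 1 these were −0.27 ± 0.68 for AKAP12 and −0.26 ± 0.28 for PDE4D. EGF+H89 against H89 had 1 higher, CREM at 0.22 ± 0.27, against 10.7%, and 3 lower, CREB1, CREB5 and PRKACB at −0.14 to −0.17, against 11.9%. All of these differences had an adjusted p above 0.99, and with 2 against 3 libraries groups often lie apart, as the shares over all genes show.

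**Figure D3:**
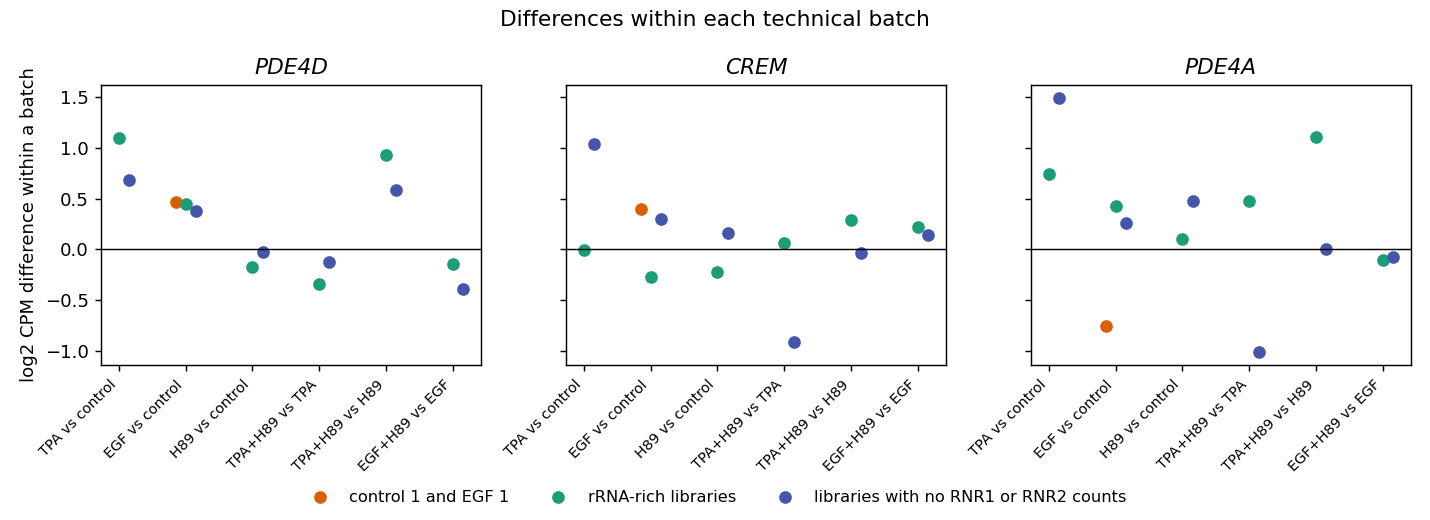
Differences in log2 CPM between groups within each technical batch for PDE4D, CREM and PDE4A; each point compares the libraries of a batch, coloured by batch. PDE4D and PDE4A with TPA lie above 0 in both batches that hold TPA and control, whereas CREM is at −0.01 in one and 1.03 in the other.

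The rest of the pathway was read from 6 lists of 81 genes, of which 78 were tested. Upstream of PKA, 0 of 17 tested cAMP makers and receptors (adenylyl cyclases, G proteins and receptors) were called in TPA against control in either direction, with a median log2 fold change of −0.05. GNAI1, an inhibitory G protein subunit, had the lowest p at 0.93 ± 0.32 (adjusted p = 0.278), and its TPA libraries lay at 82.8 and 193 CPM against 51.1, 78.9 and 86.9 CPM in control cells. PTGIR, the prostacyclin receptor, gave 1.13 ± 0.55. Its TPA libraries lay at 12.1 and 56.7 CPM against 10.2, 14.1 and 22.9 CPM in control cells.

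Of 13 other cAMP phosphodiesterases, 0 were called, with a median of −0.02. PDE8A gave 0.50 ± 0.23 and PDE7A gave 0.39 ± 0.25, while PDE10A had only 2 counts in TPA and 39 in control libraries. Most of the latter fell in control replicate 1, at 0.80 CPM against 0 and 0.05 CPM in control replicates 2 and 3. Of 10 other PKA subunits, PKA inhibitors and EPAC genes, 0 were called (median 0.03). Among them PRKAR2A, a regulatory subunit, averaged 84.4 ± 7.09 CPM in TPA cells and 54.7 ± 9.93 CPM in control cells, at 0.63 ± 0.24 (adjusted p = 0.315). PRKAR1B, another regulatory subunit, gave 0.90 ± 0.66. Its TPA libraries lay at 20.2 and 145 CPM against 69.8, 29.2 and 33.9 CPM in control cells. The testis form PRKACG had 0 counts in TPA and 15 in control libraries, all of them in control replicate 1.

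Of 11 other PKA anchors, 0 were called (median 0.16). AKAP8, an anchor in the nucleus, gave 0.53 ± 0.26, AKAP1, an anchor at mitochondria, gave −0.37 ± 0.30, and AKAP2 gave 2.91 ± 1.35 (adjusted p = 0.380). The value for AKAP2 rests on TPA replicate 2. Its TPA libraries lay at 0.34 and 14.1 CPM against 0.33, 0.24 and 2.27 CPM in control cells. Of 12 CREB partners and kinases, 0 were called (median 0.40, with 8 positive). ATF1, the closest relative of CREB1, gave 0.75 ± 0.27 (adjusted p = 0.295). The coactivator CRTC1 gave 1.18 ± 0.58, and RPS6KA4, which encodes MSK2, gave 0.83 ± 0.39. In TPA replicates 1 and 2, ATF1 lay at 28.6 and 54.5 CPM and CRTC1 at 6.32 and 30.4 CPM. For both genes and for RPS6KA4, TPA replicate 1 lay within the range of the control libraries and TPA replicate 2 above it. Their values thus rest on TPA replicate 2, and the median of 0.40 does not show a rise shared by both TPA libraries. Over these 5 lists, 0 of 63 tested genes were called in any of the 10 comparisons, with or without the batch term.

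The list of other CREB targets differed from this. In TPA against control 8 of its 15 tested genes rose and 0 fell, where 0.388% of all genes tested rose, with a median log2 fold change of 4.14, against −0.02 over all genes. The 8 were the nuclear receptors NR4A1 at 5.73 ± 0.78 and NR4A3 at 4.92 ± 0.48, the early transcription factors JUNB at 5.66 ± 0.87, EGR1 at 4.60 ± 0.76, ATF3 at 4.60 ± 0.49 and NFIL3 at 1.58 ± 0.26, the phosphatase DUSP1 at 4.80 ± 0.50 and the prostaglandin synthase PTGS2 at 4.67 ± 0.68, with adjusted p of 0.00131 to 0.0209. RGS2 gave −1.70 ± 0.57 and FOS 4.14 ± 1.00, neither past the threshold, though FOS passed it with DESeq2, with the batch term and with a block for runs of sample names. In EGF against control 1 of the 15 rose, ATF3 at 3.27. In TPA+H89 against H89 3 of 15 rose, ATF3 at 3.15, NR4A1 at 5.49 and NR4A3 at 2.71. In TPA+H89 against TPA 0 of 15 were called, with a median of −1.13 and 3 positive values. Many of these genes are also known targets of SRF and ELK factors, and the list was drawn up with results of these data known. The count of 8 with TPA became 13 with DESeq2, 11 with the batch term, 4 without each of control replicate 2, control replicate 3 and TPA replicate 2, and 0 when the TPA and control libraries were filtered and fitted alone, while the median stayed between 3.10 and 4.42. The counts of 1 and 3 became 5 and 8 with the batch term, where 41 and 80 of 18575 genes rose. Each became 0 when some single libraries were left out, such as control replicate 1 for EGF and H89 replicate 1 for TPA+H89. Without EGF replicate 1 they stayed at 1 and 3.

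**Figure D4:**
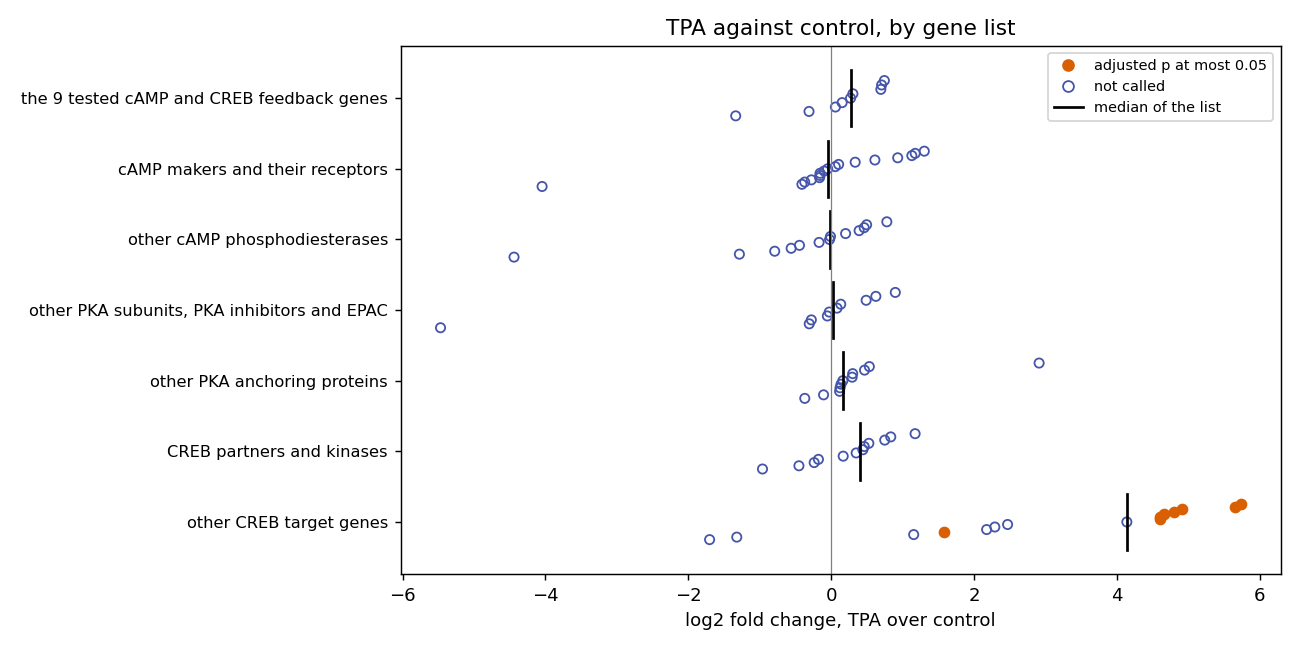
Log2 fold change of TPA over control for the 9 tested members and for each gene of the 6 pathway lists; filled points passed an adjusted p of 0.05 and black lines are medians. The filled points all belong to the other CREB targets, and the 3 lowest points (ADCY2, PDE10A and PRKACG) are genes with at most 4 counts in TPA libraries, whose fitted values depend on the prior count.

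No member was called, so the rule for similar patterns fell to SIK1. As SIK1 has no counts, CREM and PDE4D were taken instead, after their values were seen. As a description over 15 libraries that share depth and batch, with log2 CPM centred within batch, PDE4D ran most like NR4A3 (r = 0.938), CPEB2 (0.936), DUSP2 (0.933), AZIN1 (0.932) and HK2 (0.927) of 13457 genes. CREM ran most like ZNF593 (0.960), COMMD5 (0.943), RTCA (0.939), SPAG7 (0.927) and FAM216A (0.926). The r between CREM and PDE4D themselves was 0.492.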

How the data were processed

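Strand-specific RNA-seq of CCD-1070Sk fibroblasts was deposited by the authors as 1 table of raw counts per gene for 16 samples, which per the labels fall into 6 groups. Per the submitters' processing notes, HOMER was used, with hg19 or GRCh37 as the build. Not given in the sources used here are the aligner, the annotation and whether intronic or opposite-strand reads entered the counts, which bears on long genes such as PDE4D and CREB5.

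The identical control replicates 3 and 4 were used once. Genes were filtered with filterByExpr (minimum count 10), scaled by TMM and fitted over all 6 groups and 15 libraries with edgeR 4.0.16 (R 4.3.3; glmQLFit and glmQLFTest). Benjamini-Hochberg adjustment ran over all 18575 genes tested, at 0.05. Differences within batches are of edgeR's log2 CPM (prior count 2). The fit was tested on simulated data. Alternatives included DESeq2 1.42.0, a batch term, other scalings and filters, and leaving out libraries.

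The total counts per library set the counting precision, and floors cover counting error only. The members and gene lists were chosen with earlier results of these data known. All members are named, with, of each list, every called gene and the 3 of lowest p in TPA against control, except 1 that is not reported here. FOS and RGS2 fall outside this rule and were named after their values were seen. AREG was not analysed here. Promoter sequences are from RefSeq.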

Additional observations from a re-analysis of the deposited data

How the results depend on the processing

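Over 24 alternatives (DESeq2, other scalings and filters, a batch term, only the groups compared, both control copies, and each library left out in turn) and the 10 comparisons, 0 of 2160 member values were called. No spread between TPA libraries enters the fits that leave out TPA replicate 1 or 2, as 1 TPA library remains in each. Of 90 member values, 36 kept their sign under all 24 alternatives. For CREM in TPA against control the log2 fold change ran from 0.16, without EGF replicate 1, control replicate 1 and TPA replicate 2, to 0.97. For PDE4D it ran from 0.48 without TPA replicate 1 to 1.07 without those 3 libraries, and for PDE4A from 0.10 without TPA replicate 2 to 1.21 without control replicate 1. For AKAP12 in H89 against control it ran from −1.84 without control replicate 3 to −0.27 with the replicate block. Leaving out TPA replicate 1 or 2 also moved the median of all genes in TPA against control to −0.24 or −0.19, against −0.02 with all libraries. Scaling by total counts moved 5 of 54 group means by more than 1 SD. The replicate block used runs of sample names, since the labels give no shared replicate numbers, and 0 members were called with it. Leaving out control replicate 1 together with EGF replicate 1 was chosen after seeing the data. With 2 or 3 libraries a group, 34 of 72 intervals of the pairwise comparisons lay within a 2-fold change either way, 52 with the batch term and 54 without EGF replicate 1 and control replicate 1.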
